A study of Mus musculus with 8 samples.

Results

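Immediate early genes, the NFAT genes and the genes that feed back on them were read in mouse spleens as 1 set of 35 genes. They were chosen by name from what is known of signalling downstream of lymphocyte receptors, with earlier results of these data known. All 35 were measured, of 19505 genes with a symbol and 22206 transcript clusters on the array. Each gene was read from the transcript cluster, the set of probes for its exons, that bears its symbol, and for *Egr3*, the only member with several (3), from the brightest by its mean over all arrays. Total RNA came from 4 lymphoma spleen samples (Trp53KI/KI;Vav1DC/DC) and 4 control spleen samples (Trp53KI/KI). All were of strain C57BL/6, and each was read on 1 Affymetrix Clariom S HT array. By the methods of the study, both groups carry in both alleles of *Trp53* a knock-in that fuses p53 to an estrogen receptor domain and leaves it largely inactive without its ligand. The lymphoma group carries in addition, in every cell, edited *Vav1* alleles whose protein is cut short within its C-terminal SH3 domain. No age is given in the labels. By the account of the study the lymphoma is one of T cells and the spleens with it were enlarged, and lymphoma and *Vav1* genotype cannot be told apart in this design.

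Immediate early genes are transcribed within minutes of a stimulus, without new protein synthesis. In T cells the antigen receptor, through VAV1 among others, raises calcium, which lets the phosphatase calcineurin bring NFAT proteins into the nucleus, and activates MAP kinases, which act on the promoters of AP-1, EGR and NR4A genes. Most of the pathways also induce their own brakes, among them the dual-specificity phosphatases (DUSP) that switch MAP kinases off, the calcineurin inhibitor RCAN1, the NF-kB inhibitors IkBα and TNFAIP3, and the RGS proteins that shorten signals of chemokine receptors.

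All values are on the log2 scale, on which 1 unit is a doubling. Between the arrays of 1 genotype, the correlation over clusters lay between 0.992 and 0.995. No member fell to the median of the background probe sets on any array. The lowest member value was 5.28, against background medians of 4.76 to 4.94 on lymphoma arrays and 4.82 to 4.92 on control arrays. The brightest background probe set was at 8.67 to 9.13 on lymphoma arrays and 8.83 to 8.92 on control arrays, above many member values. The spiked-in hybridisation controls averaged 11.24 ± 0.12 on lymphoma arrays and 11.63 ± 0.03 on control arrays (SD, n = 4 each). If that shift of -0.39 were taken off every gene, 10 of the 14 members below 0 would lie above it, 1 of them (*Dusp2*) among those called lower. The spiked-in poly-A controls varied more, averaging 5.17 ± 0.57 on lymphoma arrays and 6.14 ± 1.39 on control arrays (SD, n = 4 each). Control replicate 4 had 8.14 for these, against 4.97 to 5.90 on the other control arrays. *Vav1* itself was at 10.39 to 10.58 on lymphoma arrays and 10.01 to 10.32 on control arrays (log2 fold change 0.31, limma adjusted p = 0.0149), a level that does not read its truncation. The methods speak of female animals for in vivo work, whereas the results of the study name both sexes for the cohorts with the *Vav1* alleles alone. The labels give no sex. Here 3 genes of the Y chromosome lay above the background median on all arrays and were lower in lymphoma, without overlap. On lymphoma arrays *Kdm5d* and *Uty*, the latter at 7.37 to 8.52, lay under the brightest background probe set. *Kdm5d* was at 7.17 to 8.01 on lymphoma arrays and 8.91 to 9.15 on control arrays (log2 fold change -1.38, limma adjusted p = 6.80e-06), and *Uty* and *Eif2s3y* changed by -1.25 and -1.28 (limma adjusted p = 0.000141 and 2.27e-05). What part this has in the changes below was not tested. A legend of the study speaks of triplicates for these data, whereas the labels give 4 samples per genotype, all used here. Whether every array stands for its own animal is not said, so a p-value here speaks of the spread between these samples only, and 4 arrays per group limit the precision. In bulk spleen RNA, fewer cells of a type and less RNA per cell cannot be told apart.

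Of the 35 genes, 19 were higher and 5 lower in lymphoma spleens, and 11 did not pass the test (limma, adjusted p at most 0.05 after Benjamini-Hochberg over all clusters, with SE for the standard error below). These are 54.3% and 14.3% of the members, where 18.2% of all clusters were called higher and 17.2% lower. Dim clusters are part of that comparison. Without the dimmest 25%, 4095 of 16654 clusters were higher and 3708 lower, and the members kept their counts of 19 and 5. The median log2 fold change of the members was 0.24, beside -0.06 over all clusters. As the set was chosen with earlier results of these data known, these figures describe it, and no test over the set was made. For 15 members every lymphoma array lay above every control array, and for 5 every one lay below, where 18% and 16.7% of all clusters did so. Most of the called changes were small: 5 members changed by at least 2-fold, all of them higher (*Rgs16*, *Rgs1*, *Nr4a2*, *Ier3* and *Jun*), and 16 of the called members by under 1.5-fold, 11 higher and 5 lower. The EGR, NR4A and DUSP families each held genes of both directions, whereas the AP-1, RGS, KLF and IER genes, and the other feedback genes, held called genes that were higher only, and the NFAT genes and *Cd69* only lower ones.

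**Figure D1:**
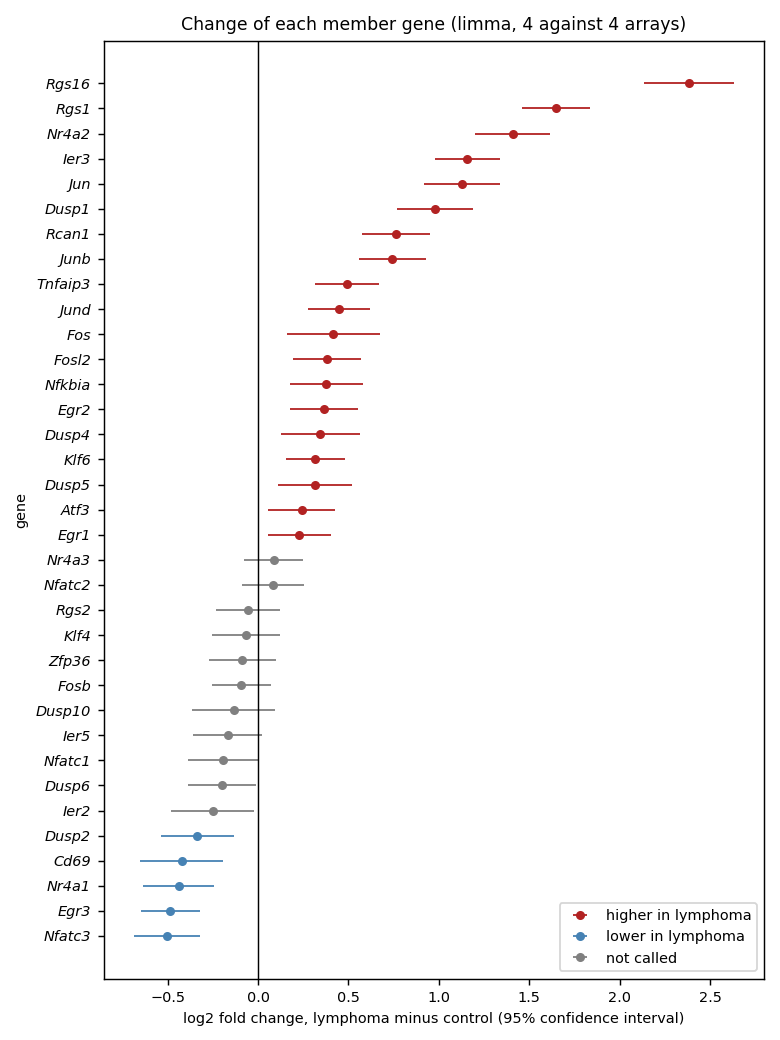
Log2 fold change of each of the 35 genes, lymphoma minus control, on the x axis, with points for the estimate and bars for its 95% confidence interval (limma, 4 arrays per group). *Rgs16* has the highest change at 2.38 and *Nfatc3* the lowest at -0.504, and the 11 grey genes in between did not pass the test.

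Of the AP-1 genes, 6 of 7 were higher and none was lower. AP-1 is a dimer of a JUN protein with a FOS, JUN or ATF protein. *Jun*, the gene of the founding JUN protein, had 9.14, 9.28, 9.10 and 9.06 on the lymphoma arrays, against 8.15, 7.78, 8.15 and 7.98 on the control arrays. All lymphoma arrays lay well above all control arrays, and the means were 9.15 ± 0.10 on lymphoma arrays and 8.02 ± 0.18 on control arrays (SD, n = 4 each). *Jun* changed by 1.13 on the log2 scale (limma, SE 0.10, adjusted p = 1.38e-06). The promoter of *Jun* is shown because it carries, in capitals, the letters that in the human gene form a site of JUN and ATF proteins (chr4:95052173-95052472, minus strand, GRCm38.p6, from 250 bases before to 50 after the start in RefSeq).
Jun: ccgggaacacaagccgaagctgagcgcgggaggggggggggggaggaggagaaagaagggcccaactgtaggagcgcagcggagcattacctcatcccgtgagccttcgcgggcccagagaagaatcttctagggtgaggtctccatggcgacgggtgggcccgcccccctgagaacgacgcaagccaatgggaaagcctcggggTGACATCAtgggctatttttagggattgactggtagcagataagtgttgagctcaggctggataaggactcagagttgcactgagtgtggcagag
The capitals, TGACATCA, start 45 bases before the transcription start, and were chosen for display after the sequence was seen. That motif, read on both strands, stands in 3.62% of all promoters of this length, and in those of 4 of the 28 members with a promoter in the table, *Jun*, *Dusp10*, *Klf6* and *Tnfaip3*. Here and below a member counts if any of its promoters holds the motif, whereas the share of all is per promoter.

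*Junb*, whose protein is a weaker activator than JUN and prominent in helper T cells, had 9.24, 9.16, 8.996 and 9.20 on the lymphoma arrays, against 8.53, 8.41, 8.27 and 8.43 on the control arrays. The groups did not overlap. *Junb* changed by 0.74 on the log2 scale (limma, SE 0.09, adjusted p = 1.84e-05). For *Jund*, the most steadily expressed JUN gene, values were 9.90 to 10.09 on the lymphoma arrays, against 9.45 to 9.65 on the control arrays. *Jund* changed by 0.45 on the log2 scale (limma, SE 0.08, adjusted p = 0.000652). Within the same arrays, *Jun* rose by 0.68 more than *Jund* and *Junb* by 0.30 more (both exact two-sided permutation test over 70 labellings, p = 0.0286, the smallest that 4 against 4 arrays allow, adjusted p = 0.0417 over 35 pairs of related genes). The excess of *Jun* over *Junb*, 0.39, missed the threshold (exact permutation test, p = 0.0571, adjusted p = 0.0714).

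Among the FOS genes, *Fos* itself was changed little and unevenly. Its values were 6.82, 6.60, 6.46 and 6.30 on the lymphoma arrays, against 6.18, 6.05, 6.35 and 5.92 on the control arrays. Replicate 4 of the lymphoma group lay below replicate 3 of the control group, so the groups overlapped. *Fos* changed by 0.42 on the log2 scale (limma, SE 0.12, adjusted p = 0.0157). Its call was lost without lymphoma replicate 1 or control replicate 4 (adjusted p = 0.0520 and 0.0507). *Fosl2*, which encodes the FOS-related antigen FRA2, had 8.06, 7.99, 8.21 and 8.02 on the lymphoma arrays, against 7.53, 7.82, 7.68 and 7.72 on the control arrays. *Fosl2* changed by 0.38 on the log2 scale (limma, SE 0.09, adjusted p = 0.00368), without overlap. *Fosb* did not pass the test, at 7.55 to 7.72 on the lymphoma arrays, against 7.68 to 7.83 on the control arrays (log2 fold change -0.09, limma SE 0.08, adjusted p = 0.367). The change of *Fosl2* exceeded that of *Fosb* by 0.47 (exact permutation test, p = 0.0286, adjusted p = 0.0417), whereas that of *Fos* exceeded that of *Fosl2* by 0.03 (exact permutation test, p = 0.686, adjusted p = 0.727) and that of *Fosb* by 0.51 (exact permutation test, p = 0.0571, adjusted p = 0.0714). *Atf3*, a stress-induced member of the ATF family that often represses, lay at 7.09 to 7.37 on the lymphoma arrays, against 6.89 to 7.13 on the control arrays. *Atf3* changed by 0.24 on the log2 scale (limma, SE 0.09, adjusted p = 0.0429). Its groups overlapped, lymphoma replicate 2 lying below control replicate 4, and the call of *Atf3* was lost without any of 6 of the 8 arrays in turn (control replicate 1, 2 or 3 or lymphoma replicate 1, 3 or 4), with adjusted p between 0.0648 and 0.116.

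**Figure D2:**
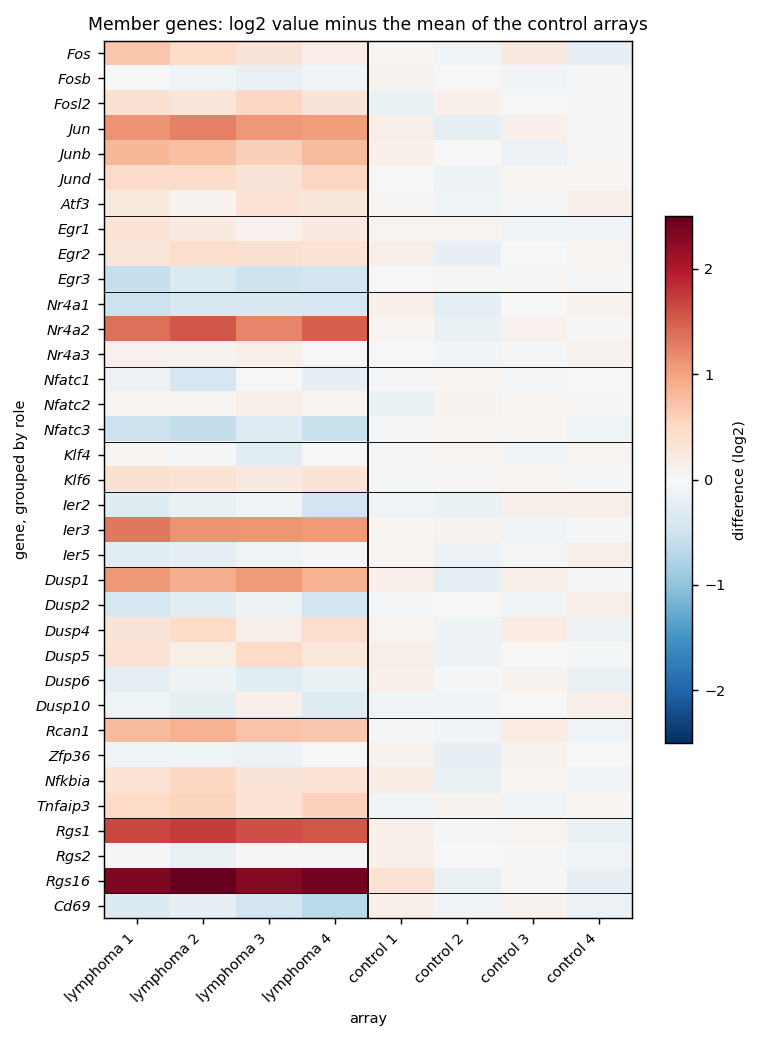
Log2 value of each gene (rows, grouped by role) on each array (columns, lymphoma left of control) minus the mean of the control arrays, in colour. *Rgs16*, *Rgs1*, *Nr4a2*, *Ier3* and *Jun* are above the control mean on all 4 lymphoma arrays, and *Egr3*, *Nr4a1* and *Nfatc3* below it.

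The EGR genes moved in opposite directions. EGR proteins are zinc finger factors, of which EGR2 and EGR3 restrain T cell activation and take part in anergy and in follicular helper cells. *Egr2* had 8.54, 8.68, 8.62 and 8.57 on the lymphoma arrays, against 8.37, 8.03, 8.23 and 8.30 on the control arrays. The lowest lymphoma array lay above the highest control array. *Egr2* changed by 0.37 on the log2 scale (limma, SE 0.09, adjusted p = 0.00510). *Egr3* had 8.498, 8.72, 8.57 and 8.60 on the lymphoma arrays, against 9.08, 9.11, 9.11 and 9.03 on the control arrays. All of its lymphoma arrays lay below all control arrays. *Egr3* changed by -0.49 on the log2 scale (limma, SE 0.08, adjusted p = 0.000223). The cluster used for *Egr3* is one of a pair that the array design leaves without a map position, and the other clusters that bear the symbol changed by -0.76 and -0.49 (limma adjusted p = 7.10e-05 and 0.00278). The mapped cluster, that with -0.76, averaged 5.72 on lymphoma arrays and 6.48 on control arrays, far below the cluster used. The level of *Egr3* thus depends on the cluster, and the direction does not. On the same arrays *Egr2* exceeded *Egr3* in its change by 0.85 (exact permutation test, p = 0.0286, adjusted p = 0.0417).

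*Egr1*, the most widely used immediate early marker, was at 8.27 to 8.51 on the lymphoma arrays, against 8.09 to 8.24 on the control arrays. *Egr1* changed by 0.23 on the log2 scale (limma, SE 0.08, adjusted p = 0.0439), without overlap. The call of *Egr1* did not hold after cyclic loess or equal array medians, nor without control replicates 3 or 4 or any lymphoma replicate but the third (limma adjusted p between 0.0530 and 0.130 over these 7 settings). The change of *Egr1* exceeded that of *Egr3* by 0.71 (exact permutation test, p = 0.0286, adjusted p = 0.0417) and lay below that of *Egr2* by 0.14 (exact permutation test, p = 0.286, adjusted p = 0.333).

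The NR4A genes, which encode orphan nuclear receptors induced by antigen receptors, showed the widest split of any transcription factor family in the set. *Nr4a2* had 7.64, 7.82, 7.49 and 7.75 on the lymphoma arrays, against 6.32, 6.07, 6.37 and 6.30 on the control arrays. The lowest lymphoma array exceeded the highest control array by more than 1 log2 unit. *Nr4a2* changed by 1.41 on the log2 scale (limma, SE 0.10, adjusted p = 1.79e-07). *Nr4a1*, used as a reporter of antigen receptor signalling in T and B cells, went the other way, with 7.66, 7.80, 7.79 and 7.77 on the lymphoma arrays, against 8.33, 7.96, 8.21 and 8.27 on the control arrays. There too the groups did not overlap. *Nr4a1* changed by -0.44 on the log2 scale (limma, SE 0.09, adjusted p = 0.00187). *Nr4a3*, the member most closely tied to NFAT in T cells, had 7.63, 7.61, 7.68 and 7.51 on the lymphoma arrays, against 7.53, 7.46, 7.500 and 7.60 on the control arrays. Its groups overlapped (log2 fold change 0.09, limma SE 0.07, adjusted p = 0.405). The change of *Nr4a1* was 1.85 below that of *Nr4a2* on the same arrays, and that of *Nr4a2* 1.32 above that of *Nr4a3* (both exact two-sided permutation test, p = 0.0286, adjusted p = 0.0417).

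The promoters of the 3 NR4A genes are printed side by side because 1 gene was higher, 1 lower and 1 not called while all carry the same short element 4 times. In capitals is TGACG on either strand, the shorter form of the element bound by CREB and ATF proteins, chosen for display after the sequences were seen. The windows lie at chr2:57123954-57124253 (minus strand), chr15:101266596-101266895 (plus strand) and chr4:48045055-48045354 (plus strand) of GRCm38.p6.
Nr4a2: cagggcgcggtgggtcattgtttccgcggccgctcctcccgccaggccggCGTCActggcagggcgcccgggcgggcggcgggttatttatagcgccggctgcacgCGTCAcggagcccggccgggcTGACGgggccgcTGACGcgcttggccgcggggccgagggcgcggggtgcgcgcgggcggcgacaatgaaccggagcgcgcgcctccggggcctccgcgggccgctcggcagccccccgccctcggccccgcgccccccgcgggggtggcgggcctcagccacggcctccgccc
Nr4a1: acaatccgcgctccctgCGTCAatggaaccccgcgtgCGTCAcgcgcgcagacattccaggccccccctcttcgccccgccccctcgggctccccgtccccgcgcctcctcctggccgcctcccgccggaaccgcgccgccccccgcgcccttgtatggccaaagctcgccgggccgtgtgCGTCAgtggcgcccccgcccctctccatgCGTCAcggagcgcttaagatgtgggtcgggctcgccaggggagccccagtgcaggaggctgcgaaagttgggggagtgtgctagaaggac
Nr4a3: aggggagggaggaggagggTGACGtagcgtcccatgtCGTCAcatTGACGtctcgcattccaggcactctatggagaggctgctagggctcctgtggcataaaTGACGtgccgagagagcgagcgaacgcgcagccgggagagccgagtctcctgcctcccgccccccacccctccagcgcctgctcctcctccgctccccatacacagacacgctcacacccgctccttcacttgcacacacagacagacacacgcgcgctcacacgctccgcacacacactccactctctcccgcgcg
At least 1 copy of TGACG occurs in 20.8% of all promoters of this length, also as part of the longer TGACGTCA, and at least 4 copies in 0.232%. Of the 28 members with a promoter in the table, 16 hold it, 9 of 16 that were higher, 3 of 3 that were lower and 4 of 9 that were not called. The count of copies thus does not separate the NR4A genes, and a match is letters in a window, not a bound site.

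**Figure D3:**
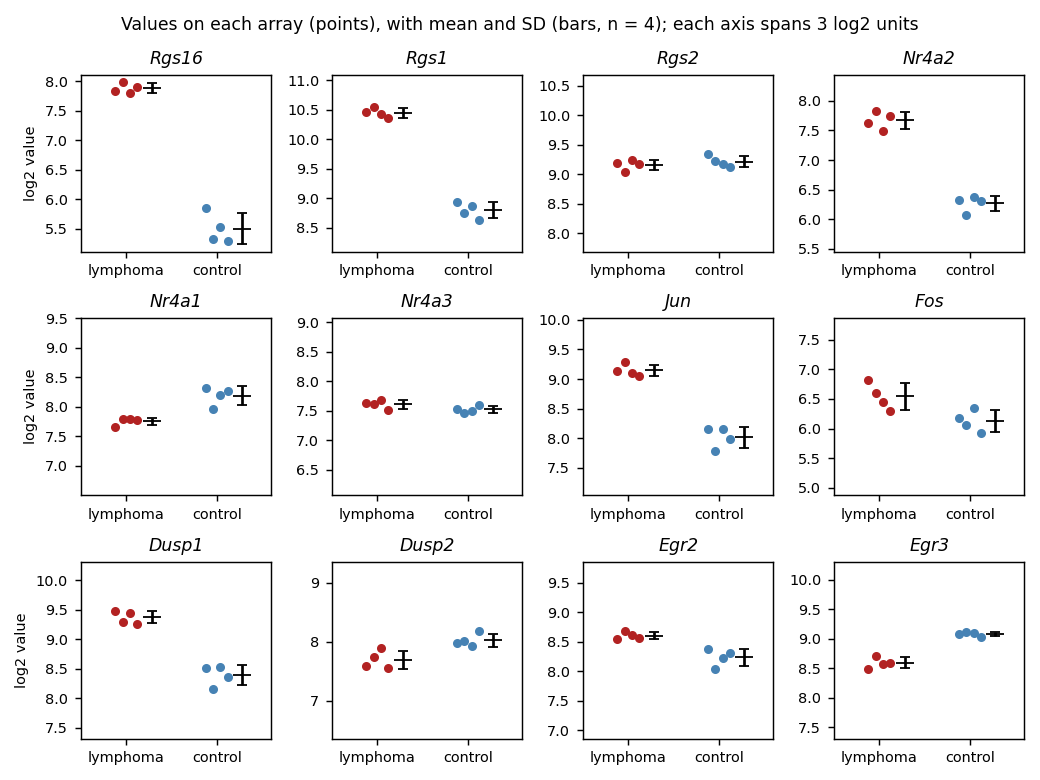
Log2 values of 12 of the genes on each array (points; lymphoma left, control right), with the mean and SD of each group as bars (n = 4), each panel spanning 3 log2 units. *Rgs16*, *Rgs1*, *Nr4a2*, *Jun* and *Dusp1* are higher in lymphoma with a wide gap, *Rgs2* and *Nr4a3* overlap, and *Nr4a1*, *Dusp2* and *Egr3* are lower in lymphoma.

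None of the NFAT genes was called higher. *Nfatc3*, the NFAT gene prominent in thymocytes and naive T cells, had 10.81, 10.75, 11.02 and 10.79 on the lymphoma arrays, against 11.32, 11.40, 11.42 and 11.24 on the control arrays. Every lymphoma array lay below every control array. *Nfatc3* changed by -0.504 on the log2 scale (limma, SE 0.08, adjusted p = 0.000418). *Nfatc1*, whose short isoform is induced through NFAT itself, had 10.41, 10.14, 10.55 and 10.36 on the lymphoma arrays, against 10.53, 10.62, 10.54 and 10.55 on the control arrays. The test was not passed (log2 fold change -0.19, limma SE 0.09, adjusted p = 0.119). Lymphoma replicate 3 lay among the control arrays for *Nfatc1* and the other 3 below all of them, and without it *Nfatc1* passed the test (adjusted p = 0.0495). For *Nfatc2*, a constitutive NFAT gene of T cells, values were 7.93 to 8.04 on the lymphoma arrays, against 7.73 to 7.98 on the control arrays (log2 fold change 0.08, limma SE 0.08, adjusted p = 0.450). The change of *Nfatc3* lay 0.59 below that of *Nfatc2* and 0.31 below that of *Nfatc1* (both exact two-sided permutation test, p = 0.0286, adjusted p = 0.0417).

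*Rcan1*, which encodes an inhibitor of calcineurin and is itself a target of NFAT, was higher, with 8.01, 8.07, 7.93 and 7.88 on the lymphoma arrays, against 7.15, 7.14, 7.42 and 7.13 on the control arrays. Control replicate 3 stood above the other control arrays but below all lymphoma arrays. *Rcan1* changed by 0.76 on the log2 scale (limma, SE 0.09, adjusted p = 1.81e-05). The gene has 2 promoters in the table, and the downstream one, from which calcium signals are known to induce it, is printed with the NFAT core letters GGAAA in capitals on either strand (chr16:92400029-92400328, minus strand, GRCm38.p6).
Rcan1: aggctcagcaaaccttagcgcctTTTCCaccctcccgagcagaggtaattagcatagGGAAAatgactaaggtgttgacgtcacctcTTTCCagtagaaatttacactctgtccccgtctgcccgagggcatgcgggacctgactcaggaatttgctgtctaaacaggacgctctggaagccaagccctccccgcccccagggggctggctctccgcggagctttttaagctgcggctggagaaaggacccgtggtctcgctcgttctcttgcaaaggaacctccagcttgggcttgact
It holds GGAAA 3 times, where the upstream promoter holds none, and also 1 TGACGTCA and 1 AP-1 site. The core GGAAA is short and stands in 61.3% of all promoters of this length and in those of 13 of 28 members, so its presence sets none of them apart. Probes of 1 transcript cluster do not tell the promoters apart.

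Of the KLF genes, *Klf6*, a zinc finger factor induced in many activated cells, was higher, with 9.66, 9.63, 9.51 and 9.60 on the lymphoma arrays, against 9.22, 9.31, 9.36 and 9.23 on the control arrays. *Klf6* changed by 0.32 on the log2 scale (limma, SE 0.07, adjusted p = 0.00497), without overlap. *Klf4*, which encodes a factor that restrains the cell cycle of T cells and promotes monocyte differentiation, was at 6.37 to 6.70 on the lymphoma arrays, against 6.58 to 6.71 on the control arrays (log2 fold change -0.07, limma SE 0.09, adjusted p = 0.593), a difference that came out above 0 after cyclic loess and without lymphoma replicate 3. The change of *Klf6* exceeded that of *Klf4* by 0.38 (exact permutation test, p = 0.0286, adjusted p = 0.0417).

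Among the IER genes, *Ier3*, which encodes a regulator of apoptosis and of ERK and NF-kB signalling, stood alone. It had 8.03, 7.84, 7.82 and 7.78 on the lymphoma arrays, against 6.76, 6.80, 6.61 and 6.66 on the control arrays. The nearest arrays of the groups were almost 1 unit apart. *Ier3* changed by 1.16 on the log2 scale (limma, SE 0.08, adjusted p = 2.97e-07). *Ier2*, a gene of a nuclear protein of the early response, had 7.71, 7.83, 7.94 and 7.52 on the lymphoma arrays, against 7.90, 7.84, 8.12 and 8.14 on the control arrays. *Ier5*, which encodes a cofactor of the heat shock factor HSF1, had 9.08, 9.12, 9.24 and 9.32 on the lymphoma arrays, against 9.40, 9.21, 9.32 and 9.504 on the control arrays. Neither passed the test, *Ier2* changing by -0.25 and *Ier5* by -0.17 (adjusted p = 0.0815 and 0.161 with limma). Without lymphoma replicate 3 *Ier2* passed it, as lower (adjusted p = 0.0433). The promoter of *Ier3* is shown for its NF-kB motif, in capitals (chr17:35821463-35821762, plus strand, GRCm38.p6).
Ier3: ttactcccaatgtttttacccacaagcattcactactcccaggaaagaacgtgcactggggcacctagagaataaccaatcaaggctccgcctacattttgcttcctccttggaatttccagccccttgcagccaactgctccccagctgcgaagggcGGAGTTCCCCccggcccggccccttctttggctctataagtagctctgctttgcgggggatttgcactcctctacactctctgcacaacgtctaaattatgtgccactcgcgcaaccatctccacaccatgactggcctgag
The motif starts 92 bases before the transcription start. It stands in 4.50% of all promoters of this length and in those of 7 of 28 members, *Fos*, *Fosb*, *Fosl2*, *Ier3*, *Nfkbia*, *Nr4a1* and *Tnfaip3*, of which *Nr4a1* was lower and *Fosb* not called.

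The DUSP genes were split, with 3 higher, 1 lower and 2 not called. *Dusp1*, the gene of a nuclear phosphatase of p38 and JNK that is itself an immediate early gene, had 9.47, 9.30, 9.45 and 9.27 on the lymphoma arrays, against 8.52, 8.16, 8.53 and 8.36 on the control arrays. All lymphoma arrays were above all control arrays, and the means were 9.37 ± 0.10 on lymphoma arrays and 8.39 ± 0.18 on control arrays (SD, n = 4 each). *Dusp1* changed by 0.98 on the log2 scale (limma, SE 0.10, adjusted p = 4.93e-06). The promoter of *Dusp1* holds a full CRE, TGACGTCA, in capitals (chr17:26508423-26508722, minus strand, GRCm38.p6), and is shown because *Rcan1* was the only other member with one.
Dusp1: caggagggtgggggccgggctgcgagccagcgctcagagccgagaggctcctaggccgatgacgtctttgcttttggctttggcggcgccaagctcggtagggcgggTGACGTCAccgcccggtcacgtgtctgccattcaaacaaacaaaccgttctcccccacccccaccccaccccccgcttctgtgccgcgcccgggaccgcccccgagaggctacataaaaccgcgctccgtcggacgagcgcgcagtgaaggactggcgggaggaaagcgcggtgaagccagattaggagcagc
The CRE lies 143 bases before the transcription start, and 1.79% of all promoters of this length hold one.

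*Dusp2*, the gene of a nuclear ERK and p38 phosphatase of lymphocytes, was lower, with 7.58, 7.74, 7.89 and 7.55 on the lymphoma arrays, against 7.97, 8.02, 7.93 and 8.18 on the control arrays. The groups did not overlap, by a narrow margin between lymphoma replicate 3 and control replicate 3. *Dusp2* changed by -0.34 on the log2 scale (limma, SE 0.09, adjusted p = 0.0138). The nuclear ERK phosphatase genes *Dusp4* and *Dusp5* were both called higher with overlapping groups. *Dusp4* had 7.58, 7.73, 7.40 and 7.69 on the lymphoma arrays, against 7.32, 7.13, 7.46 and 7.12 on the control arrays (log2 fold change 0.34, limma SE 0.10, adjusted p = 0.0181). *Dusp5* had 8.86, 8.63, 8.97 and 8.75 on the lymphoma arrays, against 8.66, 8.36, 8.48 and 8.46 on the control arrays (log2 fold change 0.31, limma SE 0.09, adjusted p = 0.0199). The call of *Dusp4* was lost without control replicates 2 or 4, or lymphoma replicate 2 (limma adjusted p between 0.0545 and 0.0575) and that of *Dusp5* without control replicate 2, or lymphoma replicates 1 or 3 (limma adjusted p between 0.0543 and 0.0626).

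*Dusp6*, which encodes the cytoplasmic ERK phosphatase, lay at 8.65 to 8.78 on the lymphoma arrays, against 8.72 to 9.04 on the control arrays (log2 fold change -0.20, limma SE 0.09, adjusted p = 0.0898) and passed the test, as lower, after cyclic loess and without control replicate 4 (adjusted p = 0.0489 and 0.0324). *Dusp10*, whose protein acts on p38 and JNK, was at 9.03 to 9.49 on the lymphoma arrays, against 9.25 to 9.53 on the control arrays (log2 fold change -0.13, limma SE 0.11, adjusted p = 0.351). Set against the other 5 on the same arrays, *Dusp1* rose by 0.64 more than *Dusp4*, 0.66 more than *Dusp5*, 1.11 more than *Dusp10*, 1.18 more than *Dusp6* and 1.31 more than *Dusp2* (each exact two-sided permutation test, p = 0.0286, adjusted p = 0.0417). *Dusp2* lay 0.65 below *Dusp5* in its change (exact permutation test, p = 0.0286, adjusted p = 0.0417), and its difference of -0.68 from *Dusp4* missed the threshold (exact permutation test, p = 0.0571, adjusted p = 0.0714). The 2 genes called higher with overlap, *Dusp4* and *Dusp5*, differed in their change by 0.03 (exact permutation test, p = 0.857, adjusted p = 0.857). Of the other pairs of DUSP genes, *Dusp4* exceeded *Dusp6* by 0.54, and *Dusp5* exceeded *Dusp6* by 0.51 and *Dusp10* by 0.45 (each p = 0.0286 and adjusted p = 0.0417 in the exact permutation test). The pairs *Dusp4* with *Dusp10*, *Dusp2* with *Dusp6*, *Dusp2* with *Dusp10* and *Dusp6* with *Dusp10* missed it, with differences of 0.48, -0.14, -0.20 and -0.06.

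The NF-kB inhibitors were both higher. *Tnfaip3*, the gene of the ubiquitin-editing enzyme that ends NF-kB signalling, had 10.53, 10.58, 10.39 and 10.62 on the lymphoma arrays, against 9.97, 10.13, 9.95 and 10.09 on the control arrays. Every lymphoma array was above every control array. *Tnfaip3* changed by 0.49 on the log2 scale (limma, SE 0.08, adjusted p = 0.000373). *Nfkbia*, the gene of IkBα, which holds NF-kB in the cytoplasm, had 10.82, 10.995, 10.80 and 10.81 on the lymphoma arrays, against 10.67, 10.29, 10.55 and 10.41 on the control arrays, without overlap. Lymphoma replicate 2 stood above the other lymphoma arrays. *Nfkbia* changed by 0.38 on the log2 scale (limma, SE 0.09, adjusted p = 0.00686). The upstream of the 2 *Tnfaip3* promoters in the table is shown because it holds the NF-kB motif at 2 places, in capitals (chr10:19015361-19015660, minus strand, GRCm38.p6).
Tnfaip3: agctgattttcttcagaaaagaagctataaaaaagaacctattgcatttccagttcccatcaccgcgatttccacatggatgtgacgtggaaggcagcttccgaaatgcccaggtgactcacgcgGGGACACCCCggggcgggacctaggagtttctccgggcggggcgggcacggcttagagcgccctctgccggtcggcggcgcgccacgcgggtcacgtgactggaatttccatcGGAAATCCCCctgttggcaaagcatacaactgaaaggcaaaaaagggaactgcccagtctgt
They start 125 and 12 bases before the transcription start. *Zfp36*, which encodes tristetraprolin, a protein that hastens the decay of cytokine mRNAs, did not pass the test, at 9.01 to 9.14 on the lymphoma arrays, against 8.95 to 9.25 on the control arrays (log2 fold change -0.09, limma SE 0.08, adjusted p = 0.463).

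The RGS genes held the largest changes of the set beside a gene that did not pass the test. RGS proteins speed the return of G proteins to their inactive state. *Rgs16*, induced in activated and exhausted T cells, had 7.84, 7.99, 7.80 and 7.90 on the lymphoma arrays, against 5.86, 5.32, 5.53 and 5.28 on the control arrays. On control arrays it lay close above the background medians and on lymphoma arrays far above them. *Rgs16* changed by 2.38 on the log2 scale (limma, SE 0.12, adjusted p = 1.34e-08). That is a 5.22-fold higher level (95% confidence interval 4.39 to 6.21). *Rgs1*, whose protein dampens the response of lymphocytes to chemokines, had 10.46, 10.55, 10.42 and 10.36 on the lymphoma arrays, against 8.94, 8.75, 8.87 and 8.64 on the control arrays. *Rgs1* changed by 1.65 on the log2 scale (limma, SE 0.09, adjusted p = 2.30e-08), a 3.13-fold higher level. *Rgs2*, a regulator of signals through Gq, had 9.19, 9.03, 9.24 and 9.17 on the lymphoma arrays, against 9.34, 9.22, 9.16 and 9.13 on the control arrays. Its groups overlapped, and it did not pass the test (log2 fold change -0.06, limma SE 0.08, adjusted p = 0.626). Relative to *Rgs2* on the same arrays, *Rgs1* rose by 1.70 and *Rgs16* by 2.44, and *Rgs16* rose by 0.74 more than *Rgs1* (each exact two-sided permutation test, p = 0.0286, adjusted p = 0.0417). *Rgs1* and *Rgs2* are close neighbours, with 1 protein-coding gene between them in the RefSeq order, *Rgs13*, an RGS gene of germinal centre B cells, which was lower (-0.87) with 2 lymphoma arrays at or below background. Members lie near each other at 2 more places, *Ier5* with 8 protein-coding genes between it and *Rgs16*, and *Ier2* with 17 between it and *Junb*, and in both the pair holds 1 gene called higher and 1 not called.

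*Cd69*, the early activation receptor that keeps lymphocytes in tissue, was lower, with 9.59, 9.73, 9.45 and 9.26 on the lymphoma arrays, against 10.06, 9.87, 10.01 and 9.78 on the control arrays. No lymphoma array reached the lowest control array. *Cd69* changed by -0.42 on the log2 scale (limma, SE 0.11, adjusted p = 0.00717). By the account of the study, the follicular helper T cells of such lymphoma mice carry high levels of CD69 protein on their surface. The value here is RNA over all cells of the spleen and does not speak to those cells alone.

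Of the 35 pairs of related genes compared on the same arrays, 24 reached the smallest exact p and 11 did not. The adjusted p of 0.0417 is the same for all 24, since it is set by how many pairs reached that smallest p. Pairs of 1 family share genes, so they are not separate pieces of support. Beside those above, the change of *Nr4a1* lay 0.52 below that of *Nr4a3* and that of *Nfatc1* 0.27 below that of *Nfatc2* (both exact permutation test, p = 0.0286, adjusted p = 0.0417). *Ier2* and *Ier5* differed by -0.08 (exact permutation test, p = 0.657, adjusted p = 0.719).

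The arrays of a group differed somewhat over the set as a whole. The median over the 35 genes of the deviation from the control mean was 0.30, 0.14, 0.16 and 0.23 for lymphoma replicates 1 to 4, against 0.06, -0.06, 0.02 and -0.03 for control replicates 1 to 4. All lymphoma medians exceeded all control medians. Within the lymphoma group, replicate 2 was the highest array for 12 members and replicates 3 and 4 the lowest for 13 and 12. Within the control group, replicate 1 was the highest for 14 members and replicate 2 the lowest for 13. The SD of a member within a group lay between 0.04 and 0.26.

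Lists of genes of the same pathways outside the set held a smaller share of genes called higher than the set itself, and 4 of the 10 held more genes called lower than higher. The set was chosen with earlier results of these data known, so this contrast is a description. Over all clusters 18.2% were called higher and 17.2% lower, and several lists lay near the share called higher. It was 20.7% for the calcineurin list, 23.1% for other RGS genes, 25.9% for other phosphatases and 26.1% for other NF-kB genes. Other immediate early genes had 14 of 35 higher and 8 lower (median log2 fold change 0.06), among them the kinase gene *Pim1* at 1.36, and, of the inhibitors of E proteins, *Id2* at 0.77 and *Id3* at -0.96. Other AP-1 and CREB partners had 7 of 19 higher and 2 lower (median log2 fold change 0.07), led by *Batf* at 1.16, *Maf* at 0.85 and *Batf2* at 0.69. Of the list of calcineurin, calcium and other NFAT genes, counts were 6 of 29 higher and 9 lower (median log2 fold change -0.03). There, *Itpr2*, a calcium channel of the endoplasmic reticulum, had -0.66, the calcineurin subunit gene *Ppp3cc* -0.53 and *Fkbp1a*, the target of the calcineurin inhibitor tacrolimus, 0.58.

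MAP kinases and serum response factors had 10 of 30 higher and 7 lower (median log2 fold change -0.11), with the kinase genes *Mapkapk3* at 1.16, *Rps6ka5* at -1.15 and *Map2k6* at -1.03. Other dual-specificity phosphatases and MAP kinase inhibitors had 7 of 27 higher and 5 lower (median log2 fold change -0.06), with *Dusp3* at 0.97, the Ras inactivator gene *Rasa2* at -0.85 and *Dusp11* at -0.54. Other NF-kB genes had 6 of 23 higher and 5 lower (median log2 fold change -0.04), with the atypical inhibitor gene *Bcl3* at 1.46, *Traf1* at 0.78 and the subunit gene *Rel* at -0.77.

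Other genes of the ZFP36 family and of mRNA decay had 0 of 14 higher and 5 lower (median log2 fold change -0.11), with *Cnot2*, of the deadenylase complex, at -0.60, the exonuclease gene *Xrn1* at -0.46 and *Zc3h12c* at -0.34. Of the other RGS genes, the list had 3 of 13 higher and 3 lower (median log2 fold change -0.05), *Rgs18* and *Rgs17* standing at -0.76 and -0.36 beside *Rgs13*. Other KLF and nuclear receptor genes had 2 of 16 higher and 4 lower (median log2 fold change -0.08), with the oxysterol receptor gene *Nr1h3* at 1.89, its partner *Rxra* at 1.01 and the glucocorticoid receptor gene *Nr3c1* at -0.43. Anergy genes, several of them known targets of NFAT acting without AP-1, had 1 of 12 higher and 6 lower (median log2 fold change -0.25), with the diacylglycerol kinase gene *Dgka* at -1.14, the ubiquitin ligase gene *Itch* at -0.44 and *Tle4* at -0.41. No test of these lists was made, and they too were chosen with earlier results of these data known.

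Markers of several cell types moved with the groups, and their part in the changes of the 35 genes was not tested. Markers of T cells, the cells of this lymphoma, had 10 of 17 higher and 1 lower (median log2 fold change 0.33, mean level 9.12 to 9.32 on lymphoma arrays and 8.83 to 8.95 on control arrays), with *Trat1* at -1.23, *Cd6* at 1.19 and *Cd4* at 0.85. B cell markers had 0 of 14 higher and 13 lower (median log2 fold change -0.76, mean level 9.996 to 10.16 on lymphoma arrays and 10.85 to 10.93 on control arrays), with *Cr2* at -1.93, *Fcer2a* at -1.79 and *Ebf1* at -1.40. Neutrophil markers had 13 of 15 higher and 0 lower (median log2 fold change 2.38, mean level 8.85 to 8.99 on lymphoma arrays and 6.61 to 6.83 on control arrays), with *Ngp* and *Lcn2* both at 4.21 and *S100a8* at 3.65. Neutrophils and monocytes can express many of the 35 genes too, and macrophage and monocyte markers had 13 of 17 higher and 2 lower (median log2 fold change 0.72, mean level 9.92 to 10.03 on lymphoma arrays and 9.02 to 9.25 on control arrays), with *C1qc* at 2.77, *C1qa* at 2.59 and *C1qb* at 2.45. The 2 lower ones were *Cd163* at -1.09 and *Marco* at -1.04.

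Plasma cell markers had 5 of 8 higher and 1 lower (median log2 fold change 0.40, mean level 8.56 to 8.70 on lymphoma arrays and 8.09 to 8.30 on control arrays), led by *Prdm1* at 1.59, *Xbp1* at 0.83 and *Derl3* at 0.77. NK cell markers had 4 of 9 higher and 4 lower (median log2 fold change -0.30, mean level 7.56 to 8.09 on lymphoma arrays and 7.44 to 7.69 on control arrays), with *Eomes*, *Nkg7* and *Prf1* at 2.54, 2.10 and 1.36, all 3 also made by cytotoxic T cells. The 4 lower ones were *Klrb1c* at -1.36, *Ncr1* at -1.28, *Klrd1* at -1.13 and *Gzma* at -0.43. Dendritic cell markers had 3 of 10 higher and 4 lower (median log2 fold change -0.15, mean level 7.97 to 8.10 on lymphoma arrays and 8.004 to 8.06 on control arrays), with *Cd209a* at -1.74, *Itgax* at 1.68 and *Fscn1* at 1.54. Erythroid markers had 4 of 8 higher and 0 lower (median log2 fold change 0.49, mean level 8.90 to 9.07 on lymphoma arrays and 7.74 to 8.86 on control arrays), with *Rhag*, *Hemgn* and *Tspan33* at 1.499, 0.99 and 0.52. Megakaryocyte markers had 2 of 7 higher and 0 lower (median log2 fold change 0.04, mean level 8.58 to 8.82 on lymphoma arrays and 8.37 to 8.67 on control arrays), *Thbs1* and *Pf4* at 0.94 and 0.34, and endothelial markers 1 of 9 higher and 2 lower (median log2 fold change -0.08, mean level 7.60 to 7.80 on lymphoma arrays and 7.75 to 7.86 on control arrays), with *Pecam1*, *Stab2* and *Erg* at -0.88, -0.41 and 0.40. For none of these markers did a whole group of arrays lie at or under the background median.

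Genes of proliferation had 13 of 13 higher and 0 lower (median log2 fold change 1.53, mean level 9.66 to 9.85 on lymphoma arrays and 7.93 to 8.31 on control arrays), with *Bub1*, *Plk1* and *Cdk1* at 2.56, 2.30 and 2.02. Heat shock genes, some of which respond to handling of tissue as several immediate early genes do, had 8 of 11 higher and 1 lower (median log2 fold change 0.32, mean level 9.76 to 9.89 on lymphoma arrays and 9.47 to 9.58 on control arrays), with the cochaperone gene *Bag3* at 0.92, the mitochondrial chaperonin gene *Hspe1* at 0.46 and *Hspa5*, of the endoplasmic reticulum, at 0.46. *Hspa1b* was called higher at 0.44. *Hspa1a* at 0.18 and *Hspb1* at -0.24 did not pass the test (limma adjusted p = 0.206 and 0.277). The part of proliferation and heat shock genes in the changes of the 35 genes was not tested.

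**Figure D4:**
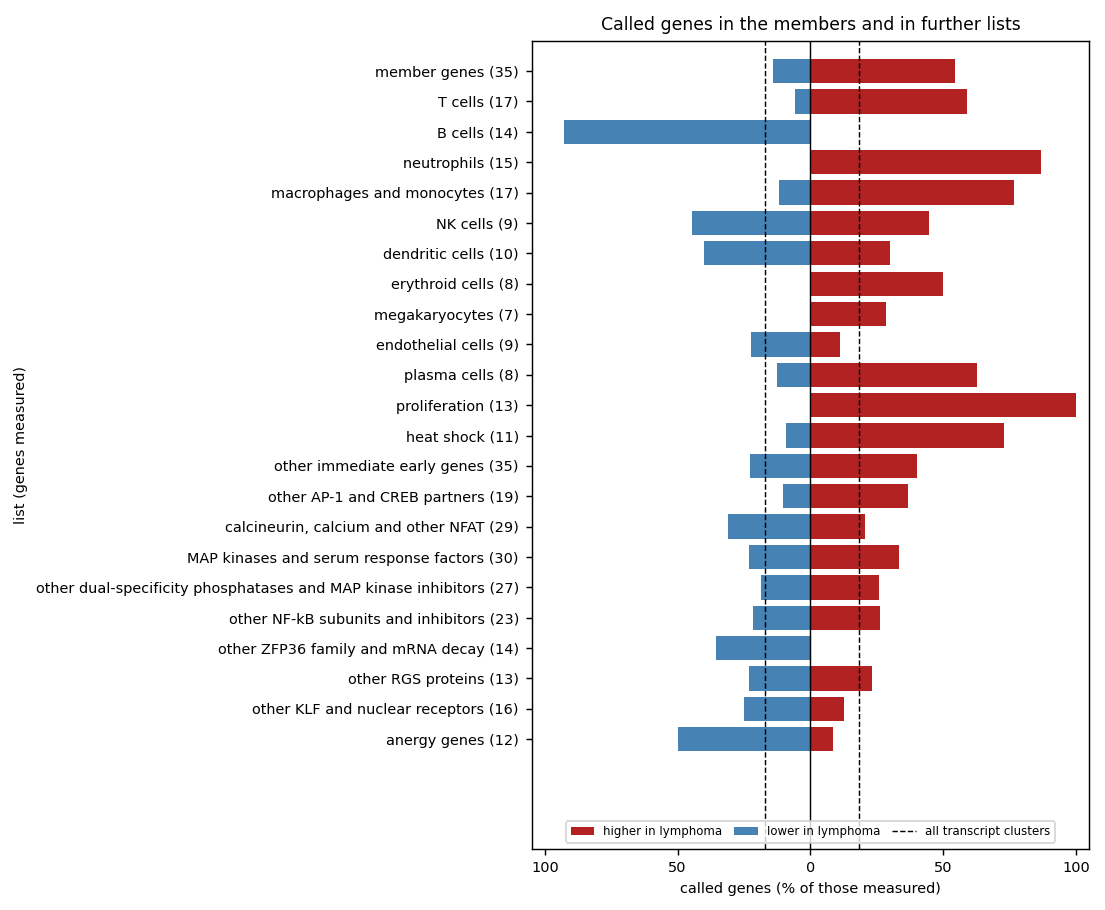
Share of the measured genes of each list that was called higher (right) or lower (left) in lymphoma (limma, adjusted p at most 0.05), in percent, with the number measured in brackets and the shares over all clusters, 18.2% and 17.2%, as dashed lines. The members have 54.3% higher and 14.3% lower, B cell markers only lower calls, and proliferation genes only higher ones.

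Motifs of the pathways were also counted over the members as a whole. Promoters from RefSeq (GRCm38.p6) were found for 28 of the 35 genes, and *Egr1*, *Egr3*, *Nfatc1*, *Ier2*, *Dusp4*, *Rgs1* and *Cd69* were not in the table. The 28 genes have 36 promoters, and a gene counts if any of them holds the motif. The shares of all are per promoter, so the measures are unlike. The CArG box, the site of the serum response factor, stood in the promoters of *Egr2*, *Dusp5* and *Zfp36*, and in 1.63% of all 32817 promoters. TGANTCA, the AP-1 site, stood in those of *Rcan1* and *Tnfaip3* and in 7.81% of all. The EGR site GCGNGGGCG stood in those of 8 members and in 5.56% of all, and AAAGGTCA, the site of NR4A monomers, in none and in 1.51%. *Rgs16*, the member with the largest change, held none of the motifs searched, and neither did *Jund* or *Ier5*. This says only that these letters are not in those windows.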

How the data were processed

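Total RNA from mouse spleens, 4 lymphoma and 4 control samples grouped by the genotype in the labels, was read on 1-colour Affymetrix Clariom S HT arrays. The labels and the methods name different RNA extraction reagents. The authors deposited log2 values, the output of the robust multichip average (background correction, quantile normalisation and summary of probes) in R 3.6.3 per the submitters' processing notes, so that levels are relative to the whole array and an overall shift of RNA content is not seen. No hybridisation batch is given in the sources used here, and none was tested. Its 29129 rows include 6923 control probe sets, and 0 columns belong to other samples. Clusters were named from the platform annotation.

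Lymphoma was compared with control over all 22206 transcript clusters with limma 3.58.1 in R 4.3.3 (lmFit, eBayes, Benjamini-Hochberg adjustment, two-sided, calls at adjusted p of 0.05 or less), as in the methods of the study, after tests on simulated arrays. Pairs of related members were compared through their difference on each array with an exact permutation test over 70 labellings in Python 3.11.15, adjusted over 35 pairs. The members, the 22 further lists (395 entries, 356 measured), the promoters shown and the motifs were chosen with earlier results of these data known. All members are named, and of each list the 3 called genes with the largest change, with further genes of the NK cell, macrophage and heat shock lists. Alternatives covered normalisation, moderation, weights, dim clusters, the cluster chosen per gene, the threshold, the replicate number as a block and each array left out. Promoter sequences and gene order come from RefSeq of GRCm38.p6, and gene positions are not given since the array's build is not given in the sources used here.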

Additional observations from a re-analysis of the deposited data

Results flagged for a closer look

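For each of the 35 genes the highest and lowest array of each group were set against the others, which made 70 groups of 4. In 2 of them 1 array stood apart by a gap beyond Dixon's 95% critical value, as a share of the group's range, where chance gives about 1 in 20. *Nfkbia* was at 10.995 on lymphoma replicate 2, against 10.80 to 10.82 on the other lymphoma arrays (gap 0.920 of the range). *Rcan1* was at 7.42 on control replicate 3, against 7.13 to 7.15 on the other control arrays (gap 0.906 of the range). Both genes kept their calls without these arrays.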

How the results depend on the processing

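The calls of the 5 largest rises, and of *Dusp1*, *Rcan1*, *Junb*, *Tnfaip3*, *Jund*, *Fosl2*, *Nfkbia*, *Egr2* and *Klf6*, held under every alternative tried, as did those of *Nfatc3*, *Egr3*, *Nr4a1* and *Cd69* among the falls. Of the alternatives over single members, 589 left the call and direction as they were, 34 lost a call, 5 gained one and 2 turned a direction: *Klf4*, never called, had log2 fold changes of 0.01 (0.0066) after cyclic loess and 0.0033 without lymphoma replicate 3, the range with each array left out being -0.11 to 0.0033. The lost calls were those of *Fos*, *Atf3*, *Egr1*, *Dusp4* and *Dusp5*, and of *Dusp2* at an adjusted p of at most 0.01 only, and the gained ones those of *Dusp6*, *Nfatc1* and *Ier2*. At that threshold the calls of *Fos*, *Atf3*, *Egr1*, *Dusp4* and *Dusp5* were lost too. Members called higher numbered 14 to 19 and lower 4 to 7 over the alternatives. With each array left out in turn they were 15 to 18 and 5 to 7, and the median of the members was 0.23 to 0.30. Of all clusters, 3825 were lower at an adjusted p of at most 0.05 and 2166 at 0.01. The 24 differences within families stayed at 24 with the other normalisations and readings of a gene. Leaving out any array took them from 24 to 0 by construction, since 3 against 4 arrays cannot go below p = 0.0571 in an exact permutation test, and none of the 24 turned direction.

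Same-numbered arrays of both groups deviated together only weakly (correlations 0.12, 0.04, 0.04 and 0.17), so the numbers were not taken to pair them, although each lymphoma array correlated best with its own number. With the replicate number as a block, 19 members were higher and 5 lower, no member's call changed, and the member median was 0.24.

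The arrays give no depth. Small changes, under 1.5-fold for 16 of the 24 called members, rest on 4 arrays per group, and the summary compresses differences near background, where *Rgs16* lay on control arrays.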
